A study of Mus musculus with 18 samples.

Results

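The mouse forkhead genes examined here are 36 Fox genes given by symbol, out of 21631 protein-coding genes on the 19 autosomes and chromosome X. They were sorted by known roles into 23 developmental members, which direct the formation of particular organs or cell types, 11 broadly expressed members, and 2 members of the early embryo, Foxd3 and Foxh1; earlier results of these data were known when the members and groups were set. Each gene was measured over its start (1 kb on each side) and over its whole body. The study mapped histone methylation by chromatin immunoprecipitation and sequencing in E14 cells, a mouse embryonic stem cell line grown in 2i/LIF medium. In untreated cells, 10 libraries covered H3K27me1, H3K27me2, H3K27me3, H3K36me2 and H3K36me3 without spike-in, 2 libraries each. The other 8 libraries came from cells kept for 7 days in 10 µM EPZ-6438, an inhibitor of the methyltransferase EZH2, or in the solvent DMSO alone, with Drosophila S2 chromatin added at 0.05% as a spike-in. They covered H3K27me3 and H3K36me2, again 2 libraries per mark and treatment. The labels do not say whether replicates were separate cultures, so p-values measure the spread between these libraries only. No RNA was analysed here, and expression terms below describe known roles.

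Forkhead proteins share a winged-helix DNA-binding domain and act as transcription factors. Many of them, such as the FoxA proteins of endoderm and the FoxC and FoxF proteins of mesoderm, are silent in pluripotent cells until a lineage forms. Polycomb repressive complex 2, whose catalytic subunit is EZH2 or EZH1, places all 3 methylation states of H3K27, and its trimethyl form covers silent developmental genes. H3K36me3 lies over the bodies of transcribed genes, and H3K36me2 and H3K36me3 on a histone tail hinder methylation of H3K27 on the same tail.

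The libraries held 17.3 to 50.9 M mouse reads (M, reads in units of 1000000) in untreated cells, 16.3 and 21.1 M for H3K27me3 in DMSO, and 38.2 to 84.4 M for H3K36me2 in the spike-in experiment. The H3K27me3 libraries after EPZ-6438 held 0.750 and 1.34 M reads, so values there rest on few reads. As a check of the labelled cell type, H3K36me3 covered the bodies of 7 of 8 pluripotency genes, Dppa5a being the exception, and H3K27me3 lay at the starts of 8 of 8 genes of differentiated lineages and of 1 of 8 pluripotency genes, Esrrb. Levels are given as multiples of the mean of all windows in the same library (the library mean), and a gene was called marked at 3 times that mean or more in both untreated libraries. For the 13 members whose RefSeq start was not used here, both ends of the gene were measured, and a call needed both ends. These were Foxb1, Foxc2, Foxe1, Foxf1, Foxh1, Foxj1, Foxk1, Foxl1, Foxm1, Foxn2, Foxp2, Foxq1 and Foxs1.

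The sequence just upstream of the start shows how differently these genes are built, and 4 promoters are shown for the members on which the results below turn. They are the 250 bases before the RefSeq start (GRCm38.p6), written 5′ to 3′ on the gene's strand with each CG dinucleotide in capitals. Some starts used lie inside the annotated gene: that of Foxa1 is at chr12:57546111, while the gene reaches 57548029. Foxb2 (chr19:16873831-16874080, minus strand) and Foxc1 (chr13:31806396-31806645, plus strand) were, of the 21 developmental members with H3K27me3 over the body, among the 7 with the highest relative level under the inhibitor against DMSO, Foxa1 (chr12:57546112-57546361, minus strand) was among the 7 of these with the lowest, and Foxk2 (chr11:121259737-121259986, plus strand) is a broadly expressed member without H3K27me3.
Foxb2: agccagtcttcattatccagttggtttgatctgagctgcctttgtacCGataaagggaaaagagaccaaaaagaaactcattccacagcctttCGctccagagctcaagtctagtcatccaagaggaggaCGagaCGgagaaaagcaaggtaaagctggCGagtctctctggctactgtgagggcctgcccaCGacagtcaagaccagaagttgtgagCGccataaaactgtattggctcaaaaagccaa
Foxc1: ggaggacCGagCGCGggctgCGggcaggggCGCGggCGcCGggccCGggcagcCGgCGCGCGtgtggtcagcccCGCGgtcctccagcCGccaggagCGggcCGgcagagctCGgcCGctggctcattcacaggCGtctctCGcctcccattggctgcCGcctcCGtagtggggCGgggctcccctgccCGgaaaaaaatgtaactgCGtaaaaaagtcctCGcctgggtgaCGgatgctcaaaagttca
Foxa1: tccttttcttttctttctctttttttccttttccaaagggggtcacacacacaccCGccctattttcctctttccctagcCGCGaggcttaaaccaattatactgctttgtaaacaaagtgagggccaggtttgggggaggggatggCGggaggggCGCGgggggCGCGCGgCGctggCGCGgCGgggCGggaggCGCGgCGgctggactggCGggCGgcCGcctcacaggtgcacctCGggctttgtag
Foxk2: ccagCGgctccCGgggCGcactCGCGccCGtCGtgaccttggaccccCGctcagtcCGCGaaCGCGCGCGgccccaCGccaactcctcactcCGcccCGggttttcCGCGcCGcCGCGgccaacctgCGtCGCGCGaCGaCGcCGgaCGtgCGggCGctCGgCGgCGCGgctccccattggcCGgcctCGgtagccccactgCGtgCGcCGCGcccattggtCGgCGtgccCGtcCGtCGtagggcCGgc
The counts of CG, a motif that reads the same on both strands, were 7 for Foxb2, 29 for Foxc1, 21 for Foxa1 and 48 for Foxk2. Of 17274 promoters of this length, 92.8% held at least 1 CG and the median was 10. The 14 developmental members with an entry had a median of 14 CG (3 to 29), and the 8 broadly expressed ones had a median of 29 (5 to 48). The count of 5 belongs to Foxn3, whose start used (chr12:99450074) lies inside an annotated gene that reaches 99563667. Foxd3 had 21. Foxb2 and Foxc1, at 7 and 29, lie on either side of Foxa1.

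In untreated cells nearly every developmental Fox gene carried H3K27me3 at its start, and few broadly expressed ones did. The mark was called at 21 of 23 developmental starts, at 3 of 11 broadly expressed starts and at 0 of 2 early starts. Among all genes, 20.1% were called where the start was known and 10.4% where both ends had to pass. The developmental median was 10.7 times the library mean in replicate 1 and 10.5 in replicate 2, against 0.755 and 0.398 in the broadly expressed group and 0.471 and 0.492 over all genes. Ranked by the mean over libraries and, where both ends were measured, over ends, the highest starts belonged to Foxe3, a regulator of lens formation, with 16.3 and 14.6 in the 2 libraries, and to Foxe1, which is needed for the thyroid, with 16.8 and 14.6 at one end of the gene and 10.8 and 12.9 at the other. The highest single end was the lower end of Foxl1, with 15.2 and 16.8, whose upper end had 8.73 and 9.28. Foxb2 followed in the ranking with 14.1 and 12.9. Foxl2, required in ovarian granulosa cells, had 13.0 and 13.6, and Foxc1, a factor of mesoderm and the anterior eye, had 12.2 and 13.6. In all 5 the replicates stayed close together and far above the threshold.

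**Figure D1:**
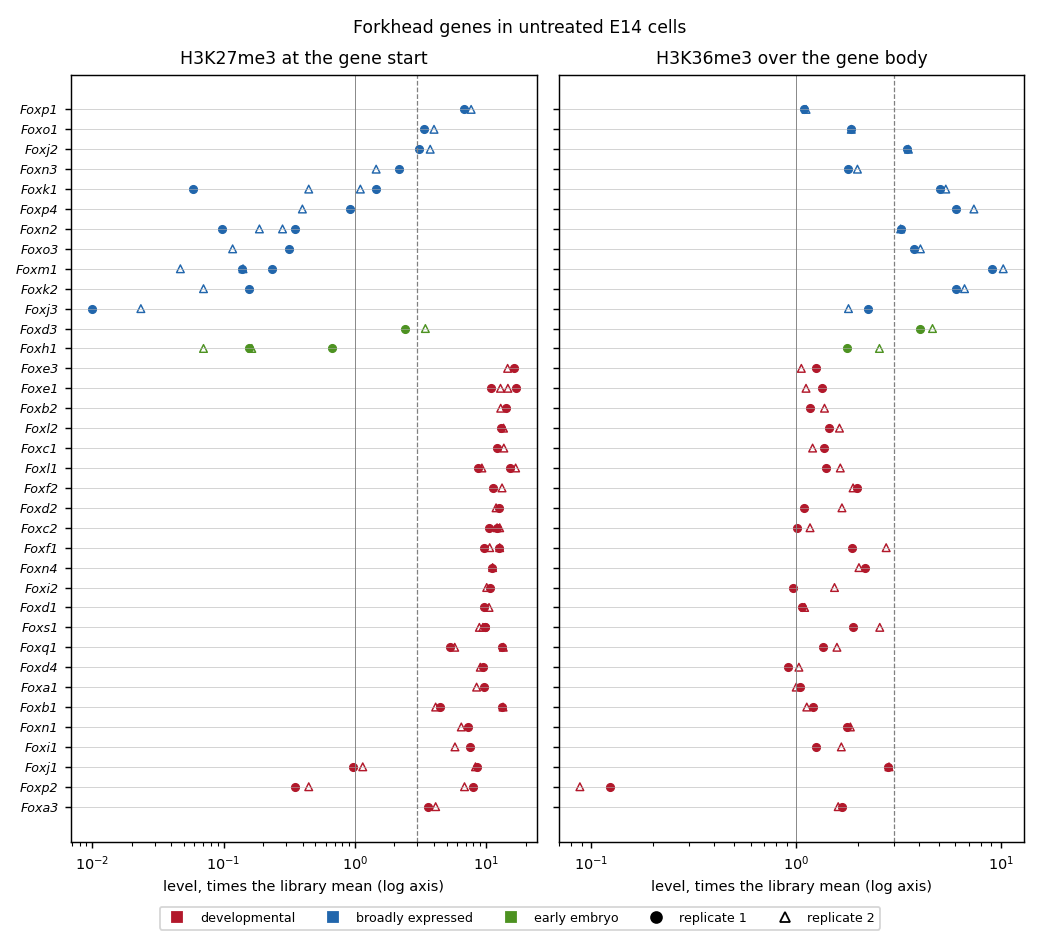
Levels of H3K27me3 at the start (left) and of H3K36me3 over the body (right) of the 36 forkhead genes in untreated cells, as multiples of the library mean on a log axis; each point is 1 library, genes measured at both ends have 2 points per library on the left, and the dashed line marks 3 times the mean. The developmental genes lie at the right of the left panel and 7 of the 11 broadly expressed genes pass the line in the right panel; Foxj3 replicate 1, at 0 for H3K27me3, is drawn at 0.01.

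The lowest developmental start called was that of Foxa3, a liver factor, at 3.63 and 4.12, just inside the threshold. The 2 developmental members not called were marked at one end only. Foxj1, the master regulator of motile cilia (chr11:116330704-116335499), had 8.45 and 8.30 at its upper end and 0.961 and 1.15 at its lower end. Foxp2, a factor of neurons and lung (chr6:14901349-15441977), had 7.92 and 6.84 at its lower end and 0.353 and 0.445 at its upper end. Which of these ends is the start was not determined here. All 23 developmental members therefore had at least 1 marked end.

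The 3 broadly expressed members that carried the mark were Foxp1, Foxo1 and Foxj2. Foxp1, a factor of lymphocytes, heart and neurons, had 6.80 and 7.69 at its start (chr6:99520993), a level within the developmental range. Foxo1, an effector of insulin signalling, had 3.37 and 4.01, and Foxj2 had 3.10 and 3.75. Both lie just above the threshold, and only Foxp1 passed 5 times the library mean. At the other extreme were Foxj3 with 0 and 0.023, Foxk2 with 0.157 and 0.070, and Foxm1, a driver of cell-cycle genes, with 0.137 and 0.047 at its lower end and 0.235 and 0.141 at its upper end. These 3 starts held almost no H3K27me3 reads. Foxd3, a factor of pluripotent cells and neural crest, was just outside the call with 2.41 and 3.45.

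Over gene bodies the calls of 2 marks differed between the 2 groups. H3K27me3 was called over 21 of 23 developmental bodies and 0 of 11 broadly expressed ones (15.1% of all genes). A call rests on the mean over the whole body. The authors' H3K27me3 peaks covered 82.2% of the body of Foxp1, 66.8% of Foxn3, 50.4% of Foxj2 and 41.3% of Foxk1. They covered 27.6% of Foxp4, 16.7% of Foxo1 and 0% of the other broadly expressed bodies. Developmental bodies were covered at 83.1% or more, except Foxp2 at 3.45%. H3K36me3 was called over 0 of 23 developmental bodies, 7 of 11 broadly expressed ones and 1 of 2 early ones (31.9% of all genes). Foxm1 had the most H3K36me3, with 9.06 and 10.3, followed by Foxp4 with 6.05 and 7.39, Foxk2 with 6.03 and 6.65, and Foxk1 with 5.07 and 5.39. Foxk1 and Foxk2 are repressors tied to nutrient signalling. Foxo3, Foxj2 and Foxn2 made up the rest of the 7. The 4 broadly expressed members below the threshold were Foxo1 at 1.85 ± 0.011 (mean ± SD, n = 2), Foxn3 at 1.90 ± 0.138, Foxj3 at 2.03 ± 0.312 and Foxp1 at 1.11 ± 0.018. Foxd3 was marked, with 4.01 and 4.64, while Foxh1 had 1.78 and 2.56.

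The developmental bodies that lacked an H3K27me3 call were those of Foxn1, the thymic epithelial regulator, and Foxp2. Foxn1 had 3.16 and 2.85, on both sides of the threshold. Foxp2 had 0.513 and 0.667 over a body of 540629 bases, together with 0.123 and 0.088 for H3K36me3, so neither mark covered it. Most developmental members are short, and their body windows overlap the start windows.

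When the marks were compared within genes with limma, H3K27me3 stood above H3K36me3 over the body (adjusted p under 0.05, Benjamini-Hochberg) in 23 of 23 developmental members and in Foxp1, and below it in 9 of 11 broadly expressed members and in Foxh1. Over all genes 35.7% were higher and 48.5% were lower. Foxc1 had a log2 difference of 2.95 ± 0.093 (SE; limma adjusted p = 0.00021) and Foxm1 one of -4.97 ± 0.140 (limma adjusted p = 0.00019). At the starts, H3K27me3 stood above H3K27me2 in 21 developmental members and in Foxj2, Foxo1 and Foxp1, and below it in Foxj3, Foxk1, Foxk2, Foxm1, Foxo3 and Foxh1 (24.8% of all genes were higher and 40.8% lower). The 6 lower calls dropped to 1 without either H3K27me2 replicate, where 4880 and 5530 genes were called in all, against 11334. The largest difference among members with a known start was that of Foxb2, at 5.77 ± 0.127 (SE; limma adjusted p = 0.0026). At the upper end of Foxc2 it was 5.78. These differences compare levels relative to each library's mean, not amounts of the marks.

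The lower methylation states had lower medians over developmental bodies than over broadly expressed ones. The median H3K27me2 over developmental bodies was 0.408 and 0.318 times the library mean, against 1.97 and 1.72 over broadly expressed bodies and 1.22 and 1.20 over all genes. Some bodies called for H3K27me3 nevertheless had H3K27me2 above the library mean, among them Foxj1 with 2.13 and 2.27, Foxa3 with 2.18 and 1.77, Foxi1 with 1.498 and 1.541, and Foxn4 with 1.495 and 1.435. Median H3K27me1 was 0.799 and 0.340 in the developmental group, where the replicates differed, and 1.74 and 1.36 in the broadly expressed group. No member was called for H3K27me1 or H3K27me2 over its body, where 2.64% and 0.314% of all genes were. Just outside the call, with only replicate 1 past 3 times the mean, were Foxm1 (3.47 and 2.93) and Foxk2 (3.31 and 2.75) for H3K27me1 and Foxk1 (3.39 and 2.67) for H3K27me2. No member was called at its start either, although the upper end of Foxk1 had 5.23 and 4.24 for H3K27me1. There 0.463% of genes with a known start were called for H3K27me1 and 0.301% for H3K27me2 (0.0689% and 0.0918% where both ends had to pass). For H3K36me2 the calls were Foxj1 with 4.70 and 4.04, Foxn1 with 4.42 and 4.20, and Foxk1 with 3.89 and 3.29 (6.05% of all genes). At starts only Foxn1 was called for H3K36me2, with 4.54 and 4.72 (5.87% of genes with a known start and 2.39% by both ends), and 0 members for H3K36me3 (4.54% and 2.39%). A single end passed for H3K36me2 in Foxj1 and Foxk1, and for H3K36me3 in Foxh1, Foxk1, Foxm1 and Foxn2. By these calls, Foxj1 over its body and Foxn1 at its start carried both H3K36me2 and H3K27me3. The developmental medians for H3K36me2 over bodies were 1.27 and 0.989. The pairing is not particular to these genes: the authors' peaks of both marks covered 100% of the bodies of Foxa3, Foxi1, Foxn4 and Foxs1. In Foxj1 the lower end had H3K36me2 at 4.32 and 3.10 and H3K27me3 at 0.961 and 1.15. Its upper end had H3K36me2 at 2.96 and 2.42 and H3K27me3 at 8.45 and 8.30.

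Genes that act with the forkhead proteins were counted in the same way. Among 18 regulators of the FOXO proteins, which phosphorylate, export, degrade or acetylate them, H3K27me3 was called at the start of 1, the kinase gene Sgk1 (20.1% of all genes with a known start), and H3K36me3 over the bodies of 14 (31.9% of all genes). In the Nodal pathway, in which Foxh1 partners with Smad proteins, H3K36me3 was called over the bodies of 5 of 13 genes, a share near that of all genes (31.9%). They were those of Nodal, its receptor Acvr1b, Acvr2b, the co-receptor Tdgf1 and Gsc. Foxh1 itself lacked H3K27me3, with 0.667 and 0.164 at its lower end and 0.157 and 0.070 at its upper end.

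EPZ-6438 lowered H3K27me3 at the forkhead genes on the spike-in scale, on which read counts are multiplied by the scaling factor found in each deposited track. Averaged over all windows, the level was 42.2 ± 9.17 scaled reads in DMSO (SD, n = 2) and 0.0790 ± 0.0172 under the inhibitor, 534-fold lower. All 36 member bodies were called lower with limma (100% of all genes tested), as were 32 of 36 starts (100% of those tested). The other 4, Foxh1, Foxj1, Foxk1 and Foxp2, had 1 end without reads in an inhibitor library and so could not be called. The bodies of 18 of 18 FOXO regulators and 13 of 13 Nodal pathway genes were lower too. The change is thus shared with the genome. The median log2 change at starts was -7.68 in developmental members, -4.33 in broadly expressed members and -5.55 over the 10456 genes with a known start and reads in all 4 libraries. Since 1 was added before the logarithm, falls to levels near or below 1 are understated, above all those from low levels. In the inhibitor libraries 1 read was only 0.242 and 0.099 scaled reads. The added 1 thus also narrows the spread between low inhibitor values on which the SE and p rest. Over bodies the median log2 change was -7.50 in developmental members, -4.82 in broadly expressed members and -4.88 over all genes tested. There the gap between the groups was small as a plain fold. The median plain fold over bodies was 292 in developmental members (106 to 1858) and 260.4 in broadly expressed members (42.5 to 685). It was 334 over the 18489 genes with reads in all 4 libraries. Median plain folds at starts are not given here.

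The largest falls at starts on the log2(scaled reads + 1) scale were those of Foxa1, a pioneer factor of endoderm, Foxj1 and Foxs1. As a plain ratio of means the order differs: the upper ends of Foxl1, Foxq1 and Foxs1 were 1978-fold, 1555-fold and 1328-fold lower, Foxn1 1202-fold and Foxp1 1026-fold. The upper end of Foxj1 was 1005-fold lower and Foxa1 921-fold. All of these rest on few reads under the inhibitor. Foxa1 had 698 and 538 scaled reads per window in DMSO and 0.302 and 1.04 under the inhibitor, a log2 change of -8.56 ± 0.354 (SE; limma adjusted p = 5.6e-08). The inhibitor values rest on 5 and 42 reads summed over overlapping windows, and they differ more than 3-fold between replicates. Adding 1 before the logarithm narrows that difference, so the SE and p do not reflect it in full. The upper end of Foxj1 went from 551 and 468 to 0.544 and 0.470, a log2 change of -8.40 ± 0.308 (SE; limma adjusted p = 5.6e-08). The upper end of Foxs1, a gene of pericytes, went from 565 and 374 to 0.484 and 0.223, a log2 change of -8.42 ± 0.343 (SE; limma adjusted p = 5.6e-08). The smallest falls on the log2(scaled reads + 1) scale were those of Foxj3, Foxn2 and Foxk2, whose starts had low levels in DMSO. Their inhibitor values lay below the added 1, so on this scale their rank largely follows the DMSO level. As plain ratios, Foxj3 was 24.5-fold, the lower end of Foxn2 37.5-fold and Foxk2 39.6-fold lower, from few reads. Foxj3 had 7.43 and 3.37 in DMSO and 0.242 and 0.198 under the inhibitor, from 4 and 8 reads. Foxk2 had 16.3 and 5.90 in DMSO and 0.363 and 0.198 under the inhibitor, from 6 and 8 reads. Foxn2 had 13.4 and 0.843 at its lower end in DMSO and 0.181 and 0.198 under the inhibitor.

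Relative to the library mean, the developmental members lay on both sides of their DMSO levels. Of the 21 developmental bodies called for H3K27me3 in untreated cells, 14 had a higher relative level in both inhibitor libraries than in either DMSO library, and 7 had a lower one in both. None overlapped, but the separation was narrow in some. Foxi2 had 14.4 and 14.5 in DMSO against 36.03 and 14.82, Foxf2 had 17.1 and 16.0 against 18.3 and 44.4, and Foxi1 had 6.09 and 6.22 against 3.32 and 5.93. Among all 3273 genes with a called body, 9.47% were higher in this way and 75.8% were lower. These genes had only to pass 3 times the library mean and were not matched to the members for level or body length. In DMSO the 21 members ranged from 4.42 (Foxa3) to 26.3 (Foxe1) times the mean. The comparison therefore does not show whether the rise is particular to forkhead genes. The median ratio of inhibitor to DMSO relative level was 1.94 in the 21 members and 0.602 in the 3273 genes. Under the inhibitor, 9 of the 21 members held at least 30 times the library mean in both libraries, as did 3.06% of the 3273 genes. That threshold was chosen after the values were seen, and Foxd1 and Foxe3 just missed it, with 29.7 and 28.5 in inhibitor replicate 1. The 9 were Foxb1, Foxb2, Foxc1, Foxc2, Foxd2, Foxd4, Foxe1, Foxf1 and Foxl1.

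Of these 21, the 7 with the highest ratios were 4.14-fold (Foxl1) to 5.32-fold (Foxc2) above their relative level in DMSO. Ratios this high or higher also occurred in broadly expressed members with little H3K27me3 in DMSO, at 4.48 for Foxm1, 5.54 for Foxj3, 7.37 for Foxk2 and 13.1 for Foxn2. The body of Foxc2, which patterns mesenchyme and lymphatic vessels (chr8:121116171-121118895), had 23.5 and 20.95 times the library mean in DMSO and 86.0 and 151 under the inhibitor. Foxe1 (chr4:46343644-46345774) went from 26.8 and 25.7 to 94.9 and 145. Foxd2 (chr4:114906280-114908898) went from 23.7 and 22.0 to 93.4 and 124. Foxb2 (chr19:16872316-16873830) went from 22.3 and 18.5 to 58.4 and 144, and Foxc1 (chr13:31806646-31810635) from 15.4 and 14.8 to 52.4 and 84.1. Foxl1, a gene of gut mesenchyme, went from 20.2 and 21.3 to 65.9 and 106, and Foxd4 from 17.8 and 15.9 to 49.4 and 90.4. In each of these 7 the inhibitor libraries stood apart from the DMSO libraries, and replicate 2 was the higher. On the spike-in scale the same bodies were 106-fold (Foxc2) to 136-fold (Foxd4) lower than in DMSO, against 534-fold for the genome.

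**Figure D2:**
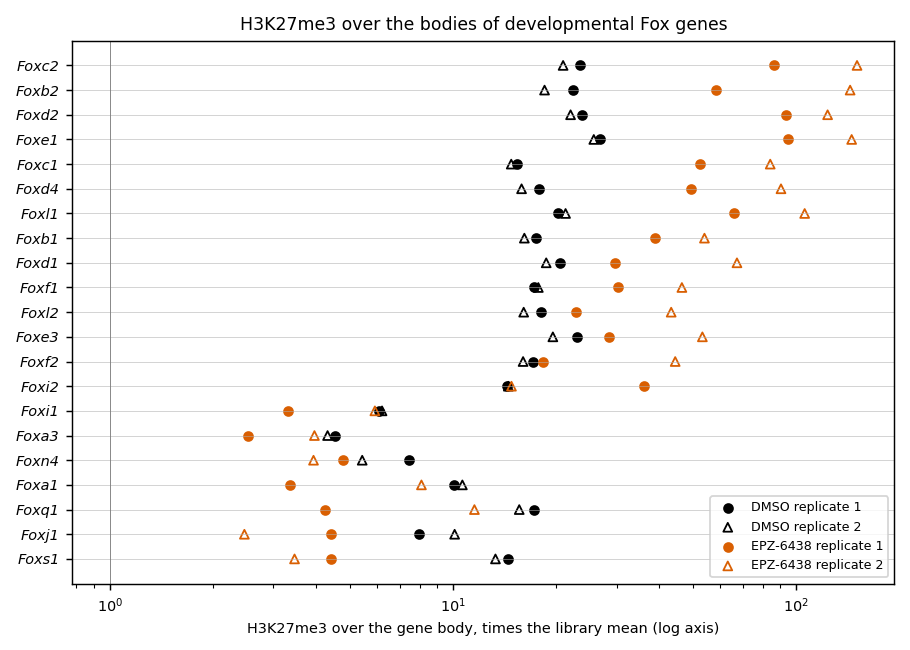
H3K27me3 over the bodies of the 21 developmental forkhead genes called for the mark in untreated cells, as multiples of the library mean on a log axis; each point is 1 library, and genes are ordered by the ratio of the inhibitor mean to the DMSO mean. The upper 14 genes lie higher under EPZ-6438 than in DMSO in both libraries and the lower 7 lie lower.

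The 7 members on the other side were Foxs1, Foxj1, Foxq1, Foxa1, Foxn4, Foxa3 and Foxi1. Foxs1 (chr2:152931898-152933208) had 14.4 and 13.3 times the library mean in DMSO and 4.42 and 3.46 under the inhibitor, a ratio of 0.284. On the spike-in scale it was 1858-fold lower, from 5 and 7 reads. Foxj1 went from 7.98 and 10.1 to 4.42 and 2.47, and Foxq1, a gene of the hair follicle and gut, from 17.3 and 15.6 to 4.25 and 11.6. Foxq1 thus started at the level of Foxc1 and Foxd4 and ended well below them. Foxi1, which specifies ion-transporting cells of the inner ear and kidney, moved less, from 6.09 and 6.22 to 3.32 and 5.93.

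The relative levels were also tested with limma. Over bodies, 11 of these 21 developmental members passed: 9 rose relative to the library mean, and 2 fell, Foxj1 and Foxs1. The 9 are those named above at 30 times the mean. That cutoff was set on these same libraries, so the match adds no support. Outside the 21 members, 7 broadly expressed members and Foxh1 rose. Of all genes tested, 42.9% rose and 9.97% fell, so the share of the 21 that rose was near that of all genes. Foxd2 rose by 2.23 ± 0.236 (log2, SE; limma adjusted p = 0.0035) and Foxs1 fell by 1.82 ± 0.228 (log2, SE; limma adjusted p = 0.0047). At the starts 8 members rose, Foxb2, Foxd2, Foxd4, Foxe1, Foxj3, Foxk2, Foxn2 and Foxp4, and 0 fell (34.3% and 4.06% of the 10456 tested genes with a known start, those with reads in all 4 libraries). These counts depend on single libraries: members rising over the body were 9 without DMSO replicate 1 and 8 without DMSO replicate 2, and members falling were 0, 1 and 7 without DMSO replicate 1, DMSO replicate 2 and inhibitor replicate 2. At the starts, 2 and 3 members rose without DMSO replicates 1 and 2 and 16 without inhibitor replicate 1, and 4 fell without either inhibitor replicate. The rises of broadly expressed members began from low levels; Foxk2 went from 0.283 and 0.145 to 1.51 and 1.64 times the library mean over its body.

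Neighbouring forkhead genes could differ. On chromosome 13 lie Foxq1 (chr13:31558170-31560976), Foxf2 (chr13:31625816-31631406) and Foxc1 (chr13:31806646-31810635), with ratios of 0.480, 1.90 and 4.53. Each sits in its own authors' peak. Foxf2 is a factor of palate and gut mesenchyme. On chromosome 4, Foxd2 and Foxe3 share 1 peak (chr4:114879001-114953500), and their ratios were 4.74 and 1.93. On chromosome 8, Foxf1, needed for lung and visceral mesoderm, had a ratio of 2.19, and Foxc2 and Foxl1, which share 1 peak (chr8:121110001-121374000), had 5.32 and 4.14. Genes in 1 peak are not independent cases.

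Within some genes the 2 ends differed. At the lower end of Foxl1 the relative level went from 23.2 and 22.5 to 77.7 and 130, while at the upper end it went from 8.70 and 9.77 to 2.65 and 2.22. Foxb1, a gene of the developing midbrain and hypothalamus, showed the same contrast, with 20.9 and 18.9 going to 66.4 and 93.0 at its upper end and 4.40 and 5.05 going to 3.98 and 1.11 at its lower end. Foxf1 had 22.1 and 21.2 at its lower end in DMSO and 73.7 and 132 under the inhibitor, and 11.08 and 11.02 at its upper end in DMSO and 15.9 and 16.3 under the inhibitor. In these 3 genes, chosen after their values were seen, the end that was higher in DMSO held more under the inhibitor. Foxe1, which passed limma's test at both ends, rose relative to the mean from 24.9 and 22.9 to 69.0 and 107 and from 15.8 and 16.3 to 54.4 and 89.3. Foxc2 went the other way: its lower end had 19.1 and 16.4 in DMSO and 17.3 and 53.3 under the inhibitor, and its upper end had 15.5 and 15.5 in DMSO and 77.7 and 110.4 under the inhibitor.

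How focused the signal was could be measured as the share of reads within 20 kb of the start that lay within 2.5 kb of it (the middle of the gene where the start was not used); an even spread would give 13.6%. For Foxb2 that share was 55.3% and 50.0% in DMSO and 82.3% and 80.0% under the inhibitor. For Foxc1 it was 32.5% and 30.3% against 65.8% and 67.4%, and for Foxe1 34.8% and 35.3% against 69.0% and 72.1%. At these 3 genes the inhibitor libraries held a more focused signal in both replicates. Some members had a lower share in both inhibitor libraries. Foxa3 had 25.3% and 25.0% in DMSO and 13.7% and 16.0% under the inhibitor. Foxn1 had 26.6% and 26.8% against 17.2% and 13.8%, and Foxj1 had 23.9% and 25.7% against 19.8% and 13.2%. Foxi1 was lower in both as well. These inhibitor shares rest on few reads within 20 kb, 36.5 and 87.5 for Foxa3 and 32 and 72.5 for Foxn1. Foxj1 had 45.5 and 68 such reads, and Foxi1 had 30.5 and 55. Whether these falls exceed counting error was not tested. For Foxs1 the share stayed near an even spread, with 13.0% and 13.3% in DMSO and 15.6% and 10.7% under the inhibitor. Over the 22 developmental members centred in a peak, the median was 30.3% and 27.6% in DMSO and 36.9% and 42.9% under the inhibitor, with a range under the inhibitor of 11.5% to 82.3% in replicate 1 and 10.7% to 80.0% in replicate 2. For the 4 broadly expressed members in a peak, the median was 27.8% and 30.1% in DMSO and 13.9% and 14.8% under the inhibitor, from 21 to 56 reads per gene. Their range under the inhibitor was 9.52% to 19.4% in replicate 1 and 6.32% to 54.5% in replicate 2, where Foxp1 was the highest. The peaks of the 22 developmental members had a median width of 55.8 kb and a range of 15.5 to 385.5 kb.

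**Figure D3:**
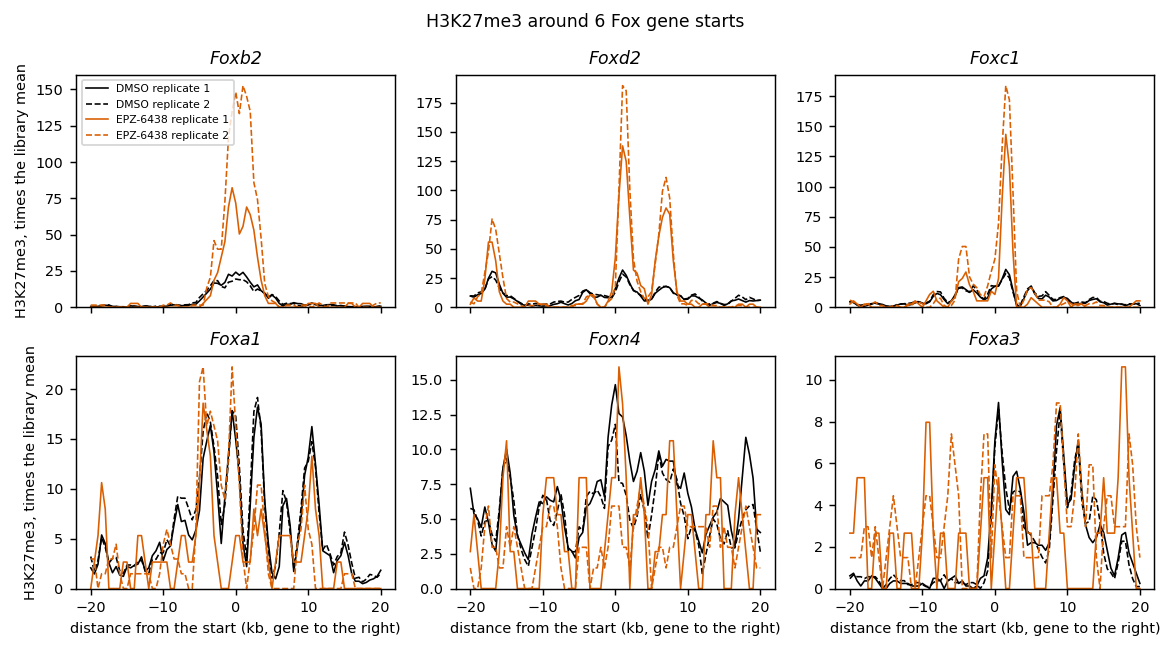
H3K27me3 in 1 kb windows every 500 bp from 20 kb before to 20 kb after the start of 6 developmental forkhead genes, as multiples of the library mean, with the gene to the right and a separate vertical scale in each panel; solid and dashed lines are replicates 1 and 2. The 6 genes, chosen after their values were seen, are those with a known start and the highest (top row) and lowest (bottom row) ratios over the body; Foxc1 peaks 1.5 kb after its start at 143 and 184 under EPZ-6438 against 31.4 and 28.0 in DMSO.

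Across the 21 members, the ratio of relative levels went with other measures as a description only. Spearman's rho was 0.778 with the DMSO level, which also enters the ratio, -0.742 with untreated H3K27me2, -0.582 with untreated H3K36me2 and -0.488 with untreated H3K27me1. The members share libraries, and several share a peak. Of the 7 members below their relative level in DMSO, all but Foxq1 had a lower DMSO level than every member on the other side. These were Foxa3 at 4.42, Foxi1 at 6.15, Foxn4 at 6.46, Foxj1 at 9.05, Foxa1 at 10.4 and Foxs1 at 13.9. Foxq1 stood at 16.4, and the lowest on the other side was Foxi2 at 14.5. The 7 also included the members with the most H3K36me2, led by Foxj1 at 4.37 and Foxn4 at 3.07. Foxq1, with 0.353, and Foxd1, a gene of kidney stroma and retina, with 0.275, had the least H3K36me2 of the 21 and ratios of 0.480 and 2.47.

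No change of H3K36me2 at forkhead genes under the inhibitor passed the test. With limma on the spike-in scale, 0 of 36 members were called in either direction at starts (0.102% of all genes were higher and 0% lower) or over bodies (0.176% higher and 0.00475% lower). At an unadjusted p under 0.05, 1 member was higher at starts and 1 over bodies, Foxp2 in both. At starts this was its upper end only, with 5.05 and 19.5 scaled reads in DMSO and 69.0 and 16.2 under the inhibitor, so the arms overlapped. The lower end of Foxp2 went from 212 and 211 to 202 and 197. Limma-voom on the recovered reads also called 0 members after adjustment. Relative to the library mean 0 members were called too, with 2 at an unadjusted p under 0.05 at starts and 4 over bodies. The shares of all genes at this unadjusted cutoff are not given here. The median log2 change over bodies was 0.14 in developmental members, -0.01 in broadly expressed members and 0.07 over all genes. Library means were 324 and 213 scaled reads per window in DMSO and 404 and 227 under the inhibitor, so replicates of 1 arm differed more than the arms did. The largest log2 change of a member over bodies, 1.09 for Foxp2 with a standard error of 0.498, did not pass. At starts a log2 change of 1.64 at the upper end of Foxp2 did not pass either. Changes up to at least these sizes could thus go undetected in these fits.

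Foxp2 had the largest H3K36me2 change, from 58.2 and 35.9 to 132 and 73.3 scaled reads per window over its body, a log2 change of 1.09 ± 0.498 (SE; limma adjusted p = 1). Both inhibitor libraries were above both DMSO libraries, at the lowest level of all members. With the replicate number as a block the limma adjusted p was 1.5e-06. Foxc1 followed with 224 and 138 against 306 and 196, and Foxe3 with 247 and 181 against 359 and 219, and in both the arms overlapped. At the low end, Foxh1 went from 948 and 624 to 817 and 541, Foxd4 from 337 and 185 to 248 and 196, and Foxq1 from 242 and 88.9 to 130 and 138. The arms overlapped for these 3 as well. Members whose H3K27me3 rose relative to the library mean and members whose level fell overlapped in their H3K36me2 change. Foxe1 and Foxb2, on the rising side, had log2 changes of 0.37 and -0.10, and Foxs1 and Foxj1 had 0.29 and -0.02.

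**Figure D4:**
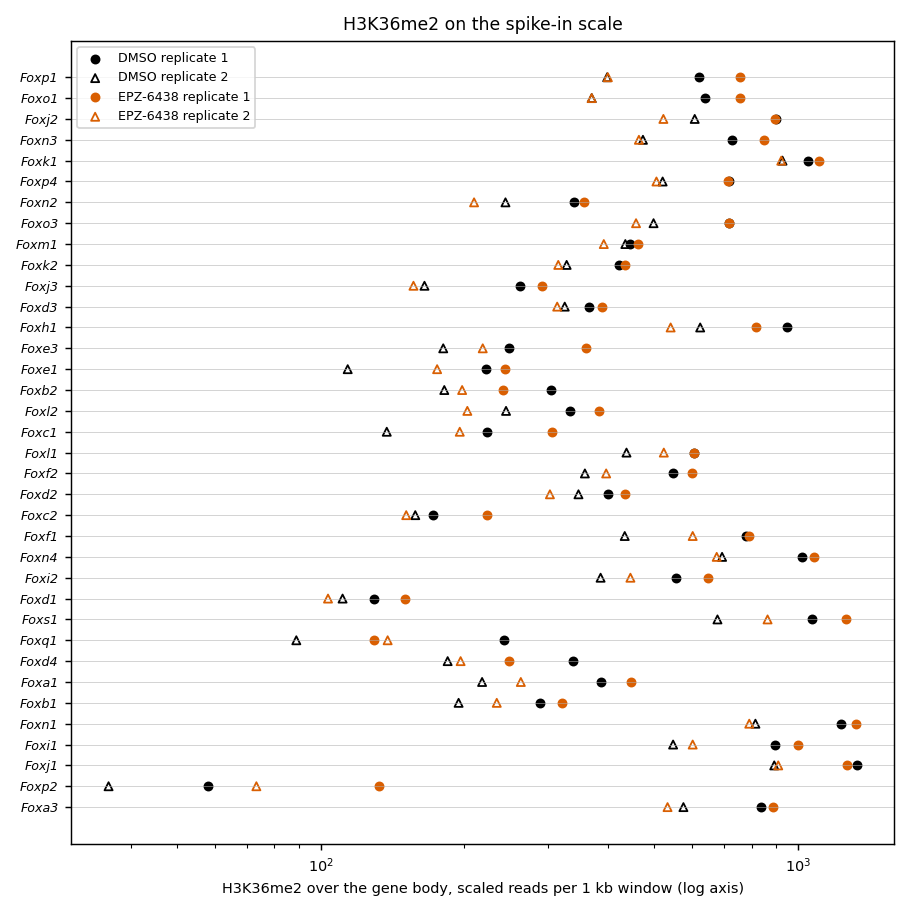
H3K36me2 over the bodies of the 36 forkhead genes in scaled reads per 1 kb window on a log axis; each point is 1 spike-in library and genes are ordered as in the plot of untreated levels. Replicate 1 lies right of replicate 2 in most genes of both arms, and Foxp2, the lowest, is the member whose 2 EPZ-6438 points lie farthest right of its DMSO points.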

How the data were processed

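The authors deposited 1 track per library, with log2 values on windows of 1 kb that start every 500 bp. Per the submitters' processing notes, Trim Galore 0.4.2, Bowtie2 2.2.6.2 and SICER were used with builds mm10 and dm3. After undoing the logarithm and taking off 1, every window (100%) held an integer number (tolerance 0.02) of a step fixed for the library, taken as 1 read; the derivation of the spike-in step is not given in the sources used here. The deposited peak lists carry a score that was not used; only peak positions were.

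Starts came from RefSeq (GRCm38.p6) promoter entries, of which 17274 of 21631 genes and 23 of 36 members had one; for the others both gene ends were used, a departure from the plan of 1 start per gene. The inhibitor was compared with DMSO using limma 3.58.1 (R 4.3.3) on log2(scaled reads + 1) for features above 0 in all 4 libraries. Marks were compared on log2(relative level + 0.1). Both used Benjamini-Hochberg adjustment over all rows at 0.05. The inhibitor fits were tried on simulated starts drawn at DMSO depth. Those data did not cover the low depth of the H3K27me3 inhibitor libraries, the body fits or the comparisons of marks. An exact permutation test of 2 against 2 libraries cannot go below p = 0.333 and was not used. Members with full values were the extremes of each measure and those called opposite to most of their group. Members, groups and lists were chosen with earlier results of these data known. Alternatives were library totals, filters, pseudocounts, limma-voom, window sizes, thresholds, a replicate block and leaving out each library. The H3K27me3 calls of the Nodal pathway list are not reported here.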

Additional observations from a re-analysis of the deposited data

How the results depend on the processing

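On library totals instead of the spike-in scale, H3K27me3 starts gave 8 members higher and 0 lower (4011 genes called) and bodies 17 higher and 2 lower (9767 genes), and the log2 changes of Foxj3 (4.29), Foxk2 (3.73) and Foxn2 (4.37 at the lower and 2.57 at the upper end) reversed; the scale sets this by construction. Without the filter on low values, 16056 genes were called for H3K27me3 at starts, and 96 and 114 for H3K36me2 at starts and bodies. Without the first 2 kb of the body, which leaves fewer genes, 20 members were lower for H3K27me3, 10 were higher for H3K27me3 than H3K36me3, and 2 genes were called for H3K36me2. H3K36me2 calls over all genes, 17 at starts and 38 over bodies, were 0 and 0 with library totals, 0 and 0 with limma-voom, and 2 at starts with a window of 2.5 kb on each side.

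With a replicate block the H3K36me2 calls were 0 genes at starts (5 relative to the library mean) and 2286 over bodies, where 1 member, Foxp2, was called higher; 2 pairs cannot show whether the numbers pair the samples. A threshold of 2 times the library mean gave 2 developmental members with H3K36me3, and 5 times gave 1 broadly expressed member with H3K27me3 and 4 with H3K36me3.

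Leaving out 1 library, the relative H3K27me3 counts ranged at starts from 2 to 16 members higher, 0 to 4 lower and 2119 to 7119 genes, and over bodies from 8 to 20 higher, 0 to 7 lower and 4597 to 12995 genes. H3K36me2 calls ranged from 0 to 59 genes at starts (0 to 55 relative) and 5 to 127 over bodies. For H3K27me3 against H3K27me2, 1 to 7 members were lower and 4880 to 10031 genes were called. The H3K36me2 log2 change ranged from -0.51 to 0.09 for Foxh1 (0.0913 without DMSO replicate 1, 0.0862 without inhibitor replicate 2), from -0.61 to 0.26 for Foxd4 and from -0.85 to 0.58 for Foxq1, the highest without DMSO replicate 1 in each and the lowest without DMSO replicate 2. The cause was not tested. Of the values of the main comparisons under these alternatives, 202 stayed within 1.5 times and 52 moved further, or to or from 0. The 202 include counts of 0 that stayed 0, such as most counts of members called for H3K36me2. Some alternatives, those on the relative scale, were added after the data were seen. The inhibitor H3K27me3 libraries, at 0.750 and 1.34 M reads, limit what can be said of single genes.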
